A study of Homo sapiens with 8 samples.

Results

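The genes described here encode the cytoplasmic machinery that shortens poly(A) tails, removes the 5′ cap and degrades messenger RNA, together with the factors of nonsense-mediated decay (NMD). The 34 genes were chosen by name and matched by symbol, out of 78932 gene identifiers in the count tables. Their RNA was measured in HCT116, a human colorectal cancer line, in which NUDT21 carries a dTAG degradation tag. All 8 libraries came from tagged cells given JTE-607, an inhibitor of CPSF73, the nuclease that cuts pre-mRNA at poly(A) sites. In 4 libraries DMSO was added, the solvent control, and in the other 4 dTAGV1, a degrader compound that brings dTAG fusion proteins to a ubiquitin ligase. The labels name a single tagged line, do not say whether it is a clone, and give no dose or time. RNA 3′ ends were sequenced with QuantSeq, which primes on poly(A) tails and reads near the 3′ end, so that counts were not divided by gene length.

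Decay of most messenger RNA starts with deadenylation. PAN2-PAN3 and then the CCR4-NOT complex trim the tail, the DCP2 enzyme with its activators removes the cap, and XRN1 degrades the body from the 5′ end. NMD feeds transcripts with premature stop codons into the same machinery: the helicase UPF1 is phosphorylated by the kinase SMG1 and then recruits factors such as SMG5 and SMG6. Several of these proteins exist as paralogues with related functions, among them CNOT6 and CNOT6L, CNOT7 and CNOT8, LSM14A and LSM14B, UPF3A and UPF3B, and DCP1A and DCP1B.

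Libraries held 3447842 to 4291256 reads counted to genes on the sense strand. NUDT21, the tagged gene, had 104, 139, 131 and 129 counts in the DMSO libraries and 34, 29, 15 and 43 in the dTAGV1 libraries, and the groups did not overlap. Its RNA was at 32.2 ± 2.81 and 8.25 ± 2.62 CPM (counts per 1000000, SD, n = 4), while the degrader acts on the protein, which was not measured here. Reads given to no gene were 30.1% to 33.7% of uniquely mapped reads with DMSO and 35.9% to 37.4% with dTAGV1. The 6 epithelial markers summed to 1575 to 1830 CPM with DMSO and 1253 to 1353 with dTAGV1. The lower sum was carried by the keratins, whose group totals went from 12198 to 7214 counts (KRT19), 6364 to 3915 (KRT18) and 2727 to 1925 (KRT8). Those of EPCAM were 4261 and 4793, those of CDH1 899 and 847, and those of CDX2 540 and 435. The 4 fibroblast markers summed to 11.2 to 20.8 CPM, nearly all of it COL1A1, and the 4 immune and 3 endothelial markers stayed under 3 CPM in every library (highest sums 0.989 and 2.93). What these differences in library make-up contribute to single genes was not tested.

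Decay factors changed in both directions upon dTAGV1, and the change that stood out in size was that of LSM14A, which rose 4.89-fold. Of the 32 members with enough counts to be tested, 13 were higher and 8 lower with dTAGV1 (edgeR's quasi-likelihood test with adjustment after Benjamini-Hochberg, threshold 0.05). Over all 12618 genes tested, 57.9% passed the same test, 29.4% higher and 28.5% lower. The members' share of 65.6% (21 of 32) lies near that background. Their median log2 fold change was 0.14, against 0.01 for all tested genes, and their median absolute change was 0.37, against 0.42. A called log2 change of 1 or more was seen in 1 member, LSM14A, and in 16.6% of all tested genes. In 17 of the 32 members the CPM ranges of the groups were separate, 12 with dTAGV1 above and 5 below, and the same was true of 50.9% of all tested genes. The labels do not say that replicates came from separate cultures, so p-values measure the spread between these libraries. In such data fewer cells of a type and less RNA per cell cannot be told apart.

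**Figure D1:**
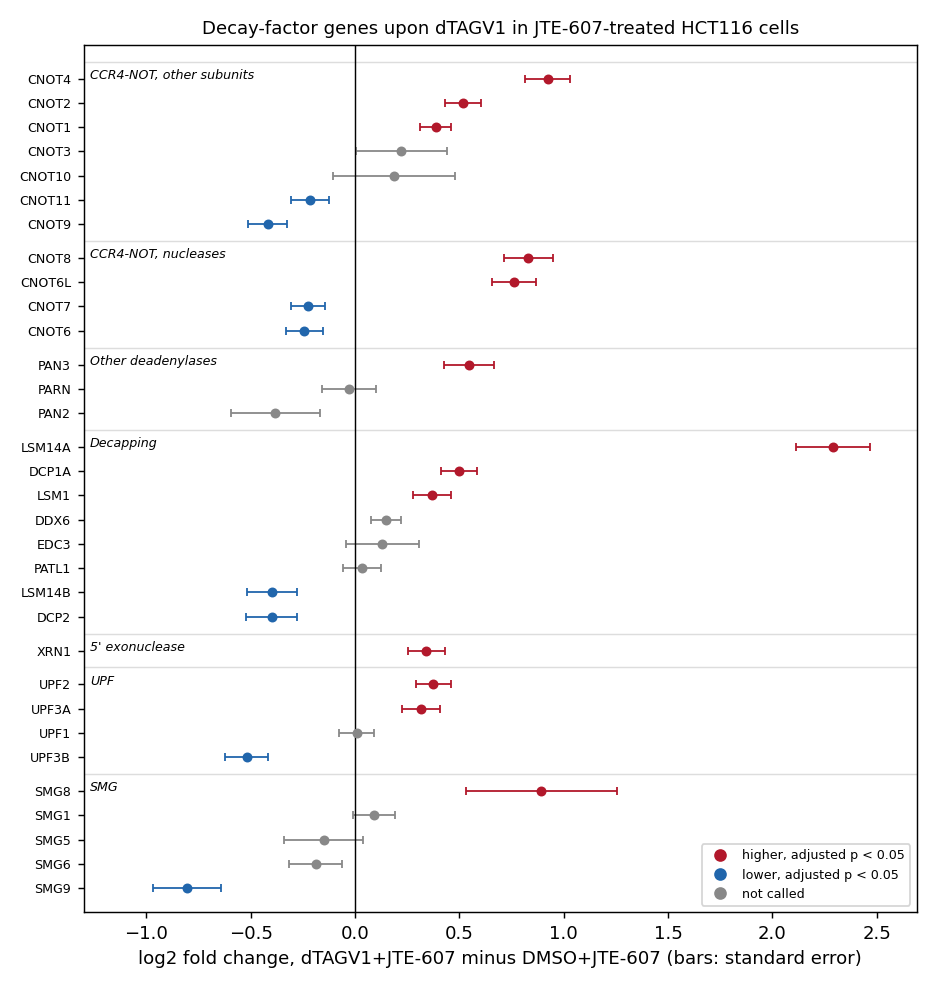
Log2 fold change (dTAGV1 minus DMSO, x axis) of the 32 tested decay-factor genes, grouped by role, with standard errors as bars (4 libraries per group). LSM14A lies at 2.29, and every other member lies between -0.80 and 0.92.

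The 4 nucleases of CCR4-NOT split by paralogue: CNOT6L and CNOT8 rose, and CNOT6 and CNOT7 fell slightly. CNOT6 and CNOT6L are the nucleases related to yeast Ccr4, and CNOT7 and CNOT8 those related to yeast Caf1, and a complex holds a member of each kind. CNOT6L (ENSG00000138767, chromosome 4, 77713387 to 77819615, minus strand) had 137, 188, 147 and 163 counts with DMSO and 255, 259, 221 and 258 with dTAGV1. All dTAGV1 libraries exceeded all DMSO libraries. Its level went from 40.6 ± 3.39 to 69.2 ± 7.63 CPM (SD, n = 4), a fitted log2 difference of 0.76 ± 0.10 (SE; edgeR, adjusted p = 9.22e-07). CNOT6 (ENSG00000113300, chromosome 5, 180494412 to 180578405, plus strand) had 244, 313, 280 and 299 counts with DMSO and 224, 193, 212 and 260 with dTAGV1. After scaling, each dTAGV1 library lay below each DMSO library, at 61.4 ± 2.24 against 72.7 ± 4.07 CPM (SD, n = 4). On the log2 scale CNOT6 differed by -0.24 ± 0.09 (SE; edgeR, adjusted p = 0.0222). Without DMSO replicate 2 or 3 this call was lost, at -0.23 and -0.24 (edgeR, adjusted p = 0.0568 and 0.0518).

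CNOT8 (ENSG00000155508, chromosome 5, 154857553 to 154876793, plus strand) had 130, 139, 87 and 138 counts with DMSO and 187, 191, 197 and 239 with dTAGV1. It rose from 31.6 ± 5.65 to 56.3 ± 2.3 CPM (SD, n = 4) without overlap, a fitted log2 difference of 0.83 ± 0.12 (SE; edgeR, adjusted p = 1.61e-06). CNOT7 (ENSG00000198791, chromosome 8, 17224964 to 17246878, minus strand) had 864, 1071, 931 and 886 counts with DMSO and 848, 662, 650 and 805 with dTAGV1. Its groups overlapped in CPM, through dTAGV1 replicate 1, at 240 ± 16.9 and 206 ± 23.6 CPM (SD, n = 4). On the log2 scale it differed by -0.23 ± 0.08 (SE; edgeR, adjusted p = 0.0189). CNOT7 no longer passed without DMSO replicate 2 (-0.20), DMSO replicate 3 (-0.22) or dTAGV1 replicate 3 (-0.21), with edgeR adjusted p of 0.0664, 0.0501 and 0.05001.

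Among the other 7 CCR4-NOT subunits, CNOT1, CNOT2 and CNOT4 rose, CNOT9 and CNOT11 fell, and CNOT3 and CNOT10 did not pass the test. CNOT4, a RING-type ubiquitin ligase loosely attached to the complex in human cells, changed most (ENSG00000080802, chromosome 7, 135361795 to 135510127, minus strand). Its counts were 150, 186, 124 and 180 with DMSO and 298, 261, 274 and 284 with dTAGV1. That is a rise from 40.9 ± 5.47 to 77.8 ± 7.46 CPM (SD, n = 4), a fitted log2 difference of 0.92 ± 0.11 (SE; edgeR, adjusted p = 7.93e-08). CNOT1, the scaffold on which the complex assembles, and CNOT2, which binds it together with CNOT3, had log2 fold changes of 0.39 and 0.52 with groups that did not overlap. When strand was ignored, only 20.8% as many reads were given to CNOT1, which still passed (0.43, edgeR adjusted p = 0.00312).

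CNOT9, which contacts RNA-binding adaptor proteins, was the lowest of these 7 (ENSG00000144580, chromosome 2, 218568580 to 218597080, plus strand). It had 268, 371, 290 and 312 counts with DMSO and 192, 212, 211 and 242 with dTAGV1, and the groups did not overlap. Its level was 79.3 ± 7.04 CPM with DMSO and 59.5 ± 4.42 with dTAGV1 (SD, n = 4), a fitted log2 difference of -0.42 ± 0.09 (SE; edgeR, adjusted p = 0.000503). CNOT10 and CNOT11 form a module at the other end of the scaffold. CNOT11 was called narrowly, at -0.22 (edgeR, adjusted p = 0.0493). It failed the test without DMSO replicate 1 (-0.22), 3 (-0.18) or 4 (-0.24) and without dTAGV1 replicate 2 (-0.21) or 4 (-0.18), where edgeR adjusted p ran from 0.0502 to 0.146. It also failed by DESeq2 (adjusted p = 0.0782) and, in edgeR, with no low-count filter, on counts irrespective of strand and with non-robust dispersions (adjusted p = 0.0543, 0.0836 and 0.0506). CNOT3 and CNOT10 were thinly counted, with 22 to 33 and 11 to 16 counts per library, and had log2 fold changes of 0.22 and 0.19 with standard errors of 0.22 and 0.29. A change of that size was not detectable at this depth. CNOT10 also shares exons with the pseudogene SUGT1P2 on its strand.

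Of the deadenylases outside CCR4-NOT, only PAN3 passed. PAN3, the pseudokinase that tethers the nuclease PAN2 to tails, had 86, 138, 130 and 120 counts with DMSO and 153, 149, 157 and 181 with dTAGV1. The groups did not overlap in CPM, at 30.3 ± 4.99 and 44.4 ± 1.57 (SD, n = 4), and on the log2 scale it differed by 0.55 ± 0.12 (SE; edgeR, adjusted p = 0.000394). PAN2 had 60, 78, 36 and 64 counts with DMSO and 49, 29, 30 and 62 with dTAGV1, a fitted log2 difference of -0.38 ± 0.21 (SE; edgeR, adjusted p = 0.126). Without DMSO replicate 3, which had the fewest PAN2 counts of its group, it was -0.55 and passed (edgeR, adjusted p = 0.0266), as it did without dTAGV1 replicate 4 (-0.55, edgeR adjusted p = 0.0417). PAN2 overlaps CNPY2 on the same strand, so that reads in the overlap may be given to neither gene. CNPY2 itself rose by 0.63. When strand was ignored, only 17.4% as many reads were given to PAN2, and on that count it was not tested. PARN, a deadenylase of nuclear and small RNAs as well, had a log2 fold change of -0.03.

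In the decapping group LSM14A, LSM1 and DCP1A rose and LSM14B and DCP2 fell, out of 8 members tested. LSM14A binds the helicase DDX6 and the adaptor 4E-T and is needed for P-bodies, the granules in which decapping factors gather. It lies on chromosome 19 (ENSG00000257103, 34172504 to 34229515, plus strand). Counts of LSM14A were 29, 18, 29 and 23 with DMSO and 102, 98, 122 and 130 with dTAGV1. Every dTAGV1 library had more than 3 times the counts of any DMSO library, and the next largest rise of a member was that of CNOT4, at 0.92. The level moved from 6.42 ± 1.72 to 31.3 ± 3.18 CPM (SD, n = 4), a fitted log2 difference of 2.29 ± 0.18 (SE; edgeR, adjusted p = 6.93e-11). With any 1 library left out it was 2.13 to 2.4.

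LSM14B, its paralogue (ENSG00000149657, chromosome 20, 62122461 to 62135378, plus strand), had 171, 175, 173 and 165 counts with DMSO and 118, 84, 128 and 154 with dTAGV1. In CPM the groups did not overlap, and the level fell from 44 ± 2.92 to 33.2 ± 5.54 (SD, n = 4). On the log2 scale it differed by -0.40 ± 0.12 (SE; edgeR, adjusted p = 0.00683). DCP2, the enzyme that cuts the cap, was the lowest of the group with a log2 fold change of -0.40, a standard error of 0.12 and groups that overlapped (edgeR, adjusted p = 0.0067). Its counts were 161, 264, 213 and 213 with DMSO and 135, 136, 120 and 209 with dTAGV1.

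DCP1A, a DCP2 cofactor, had 266, 258, 253 and 307 counts with DMSO and 343, 318, 328 and 436 with dTAGV1. It rose without overlap by 0.50 ± 0.09 on the log2 scale (SE; edgeR, adjusted p = 2.56e-05). LSM1, the subunit that sets the cytoplasmic LSM1-7 ring apart from the nuclear ring, rose by 0.37 (edgeR, adjusted p = 0.00123). LSM1 overlaps BAG4 on the opposite strand, and only 5.27% as many reads were given to LSM1 when strand was ignored. On that count it did not pass (0.26, edgeR adjusted p = 0.44). EDC3 and PATL1, activators of decapping, and the helicase DDX6 had log2 fold changes of 0.13, 0.03 and 0.15, and none passed (edgeR, adjusted p = 0.54, 0.766 and 0.0754). DCP1B, the other DCP1 paralogue, had 6, 9, 4 and 9 counts with DMSO and 21, 2, 14 and 19 with dTAGV1. EDC4, a scaffold of the decapping complex, had 2 counts in the DMSO group and 6 in the dTAGV1 group. These 2 members were too low to be tested. EDC4 shares exons with AC040162.3 on the same strand in GENCODE 29.

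XRN1, the 5′ to 3′ exonuclease (ENSG00000114127, chromosome 3, 142306607 to 142448062, minus strand), had 268, 291, 248 and 287 counts with DMSO and 336, 312, 271 and 365 with dTAGV1. Its CPM groups did not overlap, at 70.1 ± 2.95 and 88.9 ± 7.25 (SD, n = 4). On the log2 scale it differed by 0.34 ± 0.09 (SE; edgeR, adjusted p = 0.0018).

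Within the UPF group, UPF2 and UPF3A rose, UPF3B fell, and UPF1, the central helicase, differed by 0.01 ± 0.08 (SE) on the log2 scale. UPF2 bridges UPF1 to the UPF3 proteins. It was the highest of the group, with 410, 446, 428 and 489 counts with DMSO and 490, 436, 549 and 665 with dTAGV1, a fitted log2 difference of 0.38 ± 0.08 (SE; edgeR, adjusted p = 0.000339). Its CPM groups were separate. UPF3B, which links UPF2 to exon junction complexes and promotes NMD, lies on chromosome X (ENSG00000125351, 119805311 to 119852998, minus strand). It had 443, 699, 515 and 530 counts with DMSO and 291, 314, 344 and 466 with dTAGV1. The level fell from 140 ± 20.5 to 97.2 ± 11.7 CPM (SD, n = 4) without overlap, a fitted log2 difference of -0.52 ± 0.10 (SE; edgeR, adjusted p = 0.00013). UPF3A (ENSG00000169062, chromosome 13, 114281584 to 114305817, plus strand), its paralogue, had 229, 234, 233 and 249 counts with DMSO and 240, 250, 273 and 330 with dTAGV1. UPF3A rose without overlap by 0.32 ± 0.09 on the log2 scale (SE; edgeR, adjusted p = 0.00439).

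Of 5 SMG genes, SMG9 fell, SMG8 rose and SMG1, SMG5 and SMG6 did not pass. SMG8 and SMG9 form a complex with the kinase SMG1 and restrain it. SMG9 (ENSG00000105771, chromosome 19, 43727992 to 43754990, minus strand) had 95, 102, 83 and 80 counts with DMSO and 53, 33, 41 and 65 with dTAGV1. The groups did not overlap, at 23.1 ± 2.73 and 13.1 ± 2.56 CPM (SD, n = 4). Its fitted log2 difference, -0.80 ± 0.16, was the largest fall among the tested members (SE; edgeR, adjusted p = 0.000157).

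SMG8 (ENSG00000167447, chromosome 17, 59209400 to 59215247, plus strand) had 7, 5, 7 and 11 counts with DMSO and 11, 18, 8 and 15 with dTAGV1, and the groups overlapped. Its log2 fold change was 0.89 ± 0.36 (SE; edgeR, adjusted p = 0.0377), with the largest error of any tested member. The call was lost without DMSO replicate 1 (0.88), 2 (0.71) or 3 (0.87), without dTAGV1 replicate 2 (0.64) or 4 (0.88), where edgeR adjusted p ran from 0.0641 to 0.162, and by DESeq2 (adjusted p = 0.144). It was also lost with library-size scaling and with no low-count filter (edgeR, adjusted p = 0.0562 and 0.0879). SMG8 shares exons with AC099850.2 on the same strand in GENCODE 29. SMG1 had a log2 fold change of 0.09, the endonuclease SMG6 one of -0.19 and SMG5, which recruits decay enzymes to UPF1, one of -0.15 (edgeR, adjusted p = 0.462, 0.208 and 0.516). SMG1 has pseudogene copies that can take some of its reads, and its value is uncertain.

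In 4 of the 5 paralogue pairs the members moved in opposite directions, and the ratio of their counts within a library, which needs no scaling between libraries, differed between the groups. How often other pairs of genes do so was not computed. Taken singly, 50.9% of all tested genes had separate CPM groups, and 29.4% were called higher and 28.5% lower. Nothing particular to paralogues is therefore read from this count. LSM14A made up 14.5%, 9.33%, 14.4% and 12.2% of the summed LSM14A and LSM14B counts with DMSO and 46.4%, 53.8%, 48.8% and 45.8% with dTAGV1. Wilson 95% intervals of these shares, which cover counting error only, spanned 5.98% to 20.05% in the DMSO libraries and 39.9% to 60.9% in the dTAGV1 libraries. The ratio of LSM14B to LSM14A thus changed by -2.71 on the log2 scale, or 6.56-fold.

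CNOT6L took 36.0%, 37.5%, 34.4% and 35.3% of the CNOT6 and CNOT6L counts with DMSO and 53.2%, 57.3%, 51.0% and 49.8% with dTAGV1. Its Wilson 95% intervals spanned 30.1% to 41.8% and 45.5% to 61.8%. CNOT8 took 13.1%, 11.5%, 8.55% and 13.5% of the CNOT7 and CNOT8 counts with DMSO and 18.1%, 22.4%, 23.3% and 22.9% with dTAGV1, with intervals spanning 6.98% to 15.7% and 15.8% to 26.2%. CNOT7 stayed the more counted of that pair in every library, whereas CNOT6L passed CNOT6 in 3 of the 4 dTAGV1 libraries. UPF3A took 34.1%, 25.1%, 31.1% and 32.0% of the UPF3 counts with DMSO and 45.2%, 44.3%, 44.2% and 41.5% with dTAGV1, with intervals spanning 22.4% to 37.7% and 38.1% to 49.5%.

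On the log2 scale the ratio of CNOT6L to CNOT6 rose by 1.01, that of CNOT8 to CNOT7 rose by 1.08 and that of UPF3B to UPF3A fell by 0.83. Each of these 3 ratios, and that of LSM14B to LSM14A, differed without overlap (2-sided exact permutation test p = 0.0286 each, adjusted p = 0.0357 over 5 pairs). With 4 libraries against 4, 0.0286 is the smallest p such a test allows. For DCP1B over DCP1A the difference was 0.24 with overlapping groups (exact permutation p = 0.771), and DCP1B had only 2 to 21 counts per library. Summed CPM of the CNOT7 pair and of the UPF3 pair overlapped between the groups, at 272 ± 15.8 and 262 ± 21.5, and at 200 ± 17.8 and 173 ± 16.6 (SD, n = 4). Sums of the LSM14 pair, 50.4 ± 4.49 and 64.5 ± 7.87 CPM, and of the CNOT6 pair, 113 ± 6.89 and 131 ± 6.75 CPM, did not (SD, n = 4). For the LSM14 pair the gap was narrow, from 54.65 CPM, the highest with DMSO, to 54.98, the lowest with dTAGV1. Sums of the DCP1 pair were separate too, at 71.4 ± 6.09 and 102 ± 4.58 CPM (SD, n = 4).

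**Figure D2:**
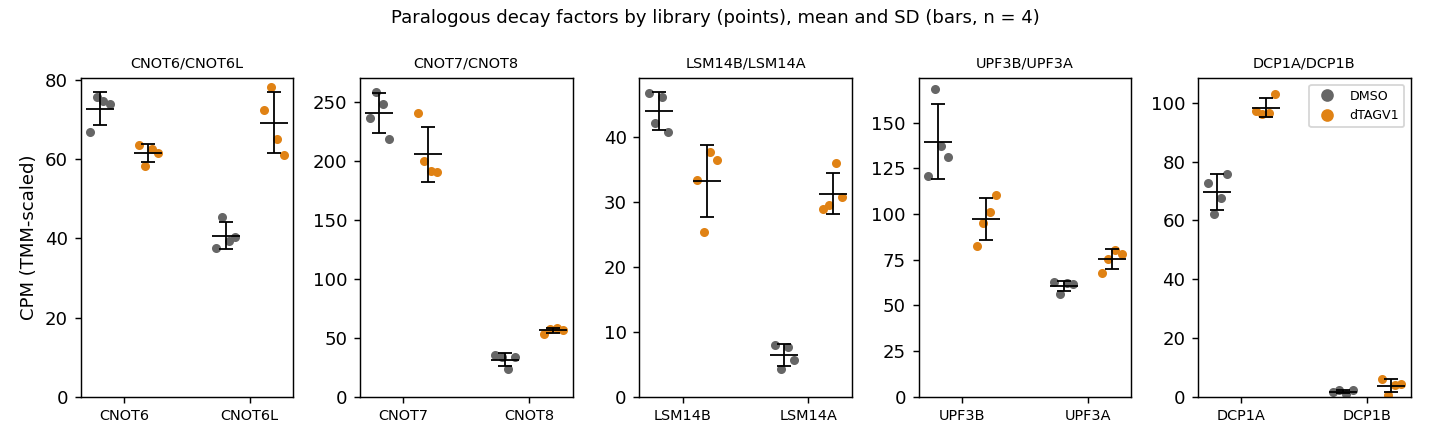
CPM (y axis, from 0 in each panel) of the members of 5 paralogue pairs, with points for the 4 DMSO (grey) and 4 dTAGV1 (orange) libraries and black marks for mean and SD. In the first 4 panels the left-hand gene is lower on average and the right-hand gene higher with dTAGV1, whereas DCP1A is higher and DCP1B is at 1.78 and 3.79 CPM on average.

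**Figure D3:**
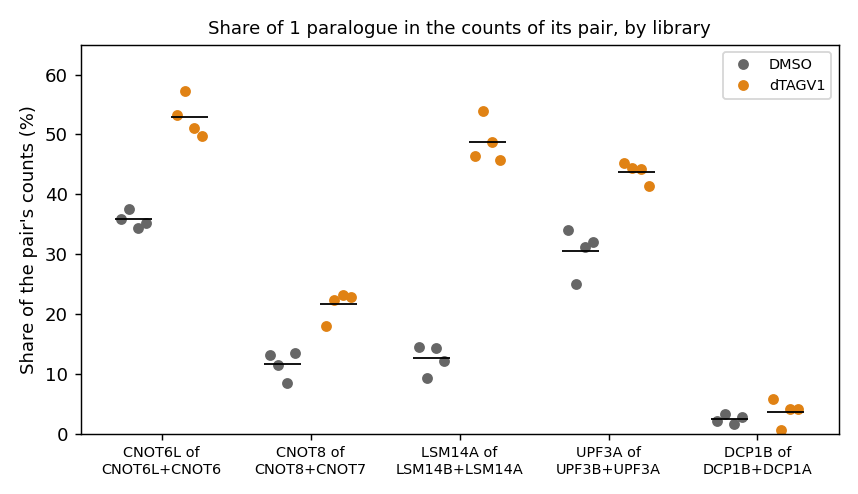
Percent of the counts of a pair that belong to the paralogue named first (y axis), per library, with group means as lines. The DMSO (grey) and dTAGV1 (orange) libraries separate in the first 4 pairs, most widely for LSM14A with means of 12.6% and 48.7%, and overlap for DCP1B.

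The NUDT21 protein is the subunit of cleavage factor Im that binds UGUA (TGTA in DNA letters) upstream of poly(A) signals. The annotated ends of the LSM14, CNOT6 and UPF3 pairs are shown because the counted reads come from transcript 3′ ends. Each is the last 30 bases of the coding transcript that reaches farthest downstream, from the GENCODE 29 basic set on GRCh38, in the 5′ to 3′ direction of the transcript. Capitals mark the poly(A) signal AATAAA or, failing that, ATTAAA.
LSM14A: ctgtgtgtaAATAAAatacttctgagatca
LSM14B: ataAATAAAcatgcaaacctttaaaatttt
CNOT6: aataattcATTAAAtgtcttgttgcctgta
CNOT6L: taggcAATAAAtggccattttgcaactgca
UPF3A: AATAAAaattttgttaaagaagtactgaaa
UPF3B: cAATAAAtagtaacagcattcaagtgtgaa
They lie at chr19:34229486-34229515 and chr20:62135349-62135378 for LSM14A and LSM14B, on the plus strand. CNOT6 ends at chr5:180578376-180578405 (plus) and CNOT6L at chr4:77713387-77713416 (minus). UPF3A ends at chr13:114305788-114305817 (plus) and UPF3B at chrX:119834022-119834051 (minus), inside the annotated span of the gene, which reaches 119805311. All 6 ends carry a signal, ATTAAA in CNOT6 and AATAAA in the others. The letters TGTA, searched on the transcript strand in the last 100 bases, occurred 1 and 2 times in LSM14A and LSM14B, 1 and 2 times in CNOT6 and CNOT6L, and 1 and 0 times in UPF3A and UPF3B. The search took TGTA on either side of the poly(A) signal. In CNOT6 the only TGTA ends the printed sequence, downstream of ATTAAA. Which of a gene's poly(A) sites the reads came from was not analysed here.

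TGTA was found in the last 100 bases of 11 of the 13 members that rose, 4 of the 8 that fell and 6 of the 11 that did not pass, and in 55.5% of 10637 tested genes with a coding transcript of annotated 3′ end in that set (58.3% of those higher, 56.2% of those lower and 53.0% of those not called). These counts include TGTA downstream of a signal, as in CNOT6, which fell. AATAAA was found in the last 40 bases of 10, 5 and 7 of these members, and in 62.2% of the tested genes. Members that rose spanned a median of 106 kb of the genome and those that fell 27.8 kb. The same difference, smaller, was seen in the medians of all tested coding genes, 48.8 kb for those higher and 29.2 kb for those lower with dTAGV1. Annotated 3′ UTRs had a median length of 1276 bases in members that rose and 3204 bases in those that fell, whereas over all tested genes the medians were 1489 and 1184 bases. These are descriptions of small groups, and no test was made of them.

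Other genes of the same pathways, not members, were called in both directions. Of the 55 tested in 4 lists, 61.8% were called, which is near the 57.9% of all tested genes (29.4% higher, 28.5% lower), and nothing particular to these lists is read from it. By list the share called was 70.6% for core partners of decay, 55.6% for adaptors, 40% for NMD partners and 80% for NMD substrates, the last 2 of only 10 tested genes each. Of 19 core partners of decay, 17 were tested, 6 rose and 6 fell. NOCT, related to the CCR4-type deadenylases, rose by 1.00 ± 0.29 (SE) on the log2 scale (edgeR, adjusted p = 0.00552), with 29, 34, 18 and 24 counts with DMSO and 79, 48, 32 and 35 with dTAGV1. Its rise was thus largest in dTAGV1 replicate 1. TNKS1BP1, a partner of CCR4-NOT, rose by 0.51, while the mitochondrial deadenylase PDE12 and the ring subunit LSM4 fell by 0.85 and 0.63.

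Of 18 adaptors that recruit CCR4-NOT or its partners to messages, all tested, 6 rose and 4 fell. RC3H1 (Roquin-1) and HELZ, a helicase, rose by 0.52 and 0.47, and the AU-rich element binder ZFP36L2 and RC3H2 (Roquin-2) fell by 0.93 and 0.64. The Roquin paralogues were both well counted, with 216 to 327 counts for RC3H1 and 231 to 481 for RC3H2 per library. Groups did not overlap for either gene.

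Among 11 NMD and exon junction partners, 10 were tested, 1 rose and 3 fell. NBAS, an NMD factor, rose by 0.82. MAGOHB and RNPS1, parts of or bound to the exon junction complex, fell by 0.39 and 0.27 (edgeR, adjusted p = 0.0357 and 0.0106). MAGOHB had 46 to 90 counts per library. The 10 genes listed as known NMD substrates were split, with 4 higher, 4 lower and 2 not called. GADD45A rose by 1.05 (773 to 1032 counts with DMSO, 1447 to 1979 with dTAGV1) and TBL2 by 0.72, while GADD45B fell by 0.69 and the snoRNA host SNHG1 by 0.64. Several of these genes are also known to respond to stress or growth signals.

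**Figure D4:**
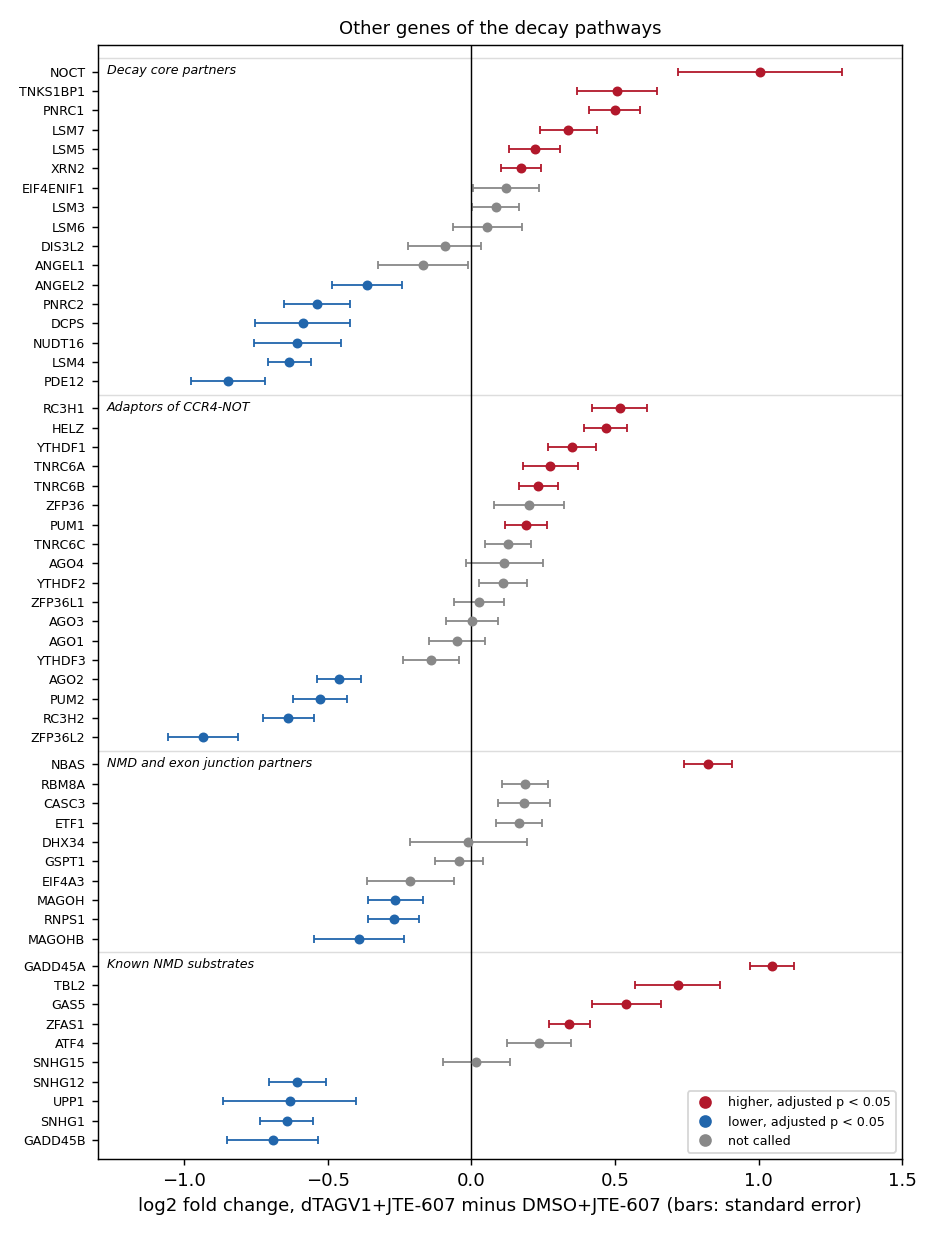
Log2 fold change (dTAGV1 minus DMSO, x axis) with standard errors of the 55 tested genes in 4 lists of other decay-pathway genes. Red and blue points, called higher and lower by edgeR, occur in each list, and values run from -0.93 for ZFP36L2 to 1.05 for GADD45A.

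Reads on the opposite strand of the members were few, and 4 members had enough for a test. In CNOT1 they fell, from 26, 37, 35 and 42 counts with DMSO to 8, 6, 7 and 13 with dTAGV1, a fitted log2 difference of -2.05 ± 0.28 (SE; edgeR, adjusted p = 3.89e-07). Of 3324 genes tested on this strand, 48.4% passed. CNOT1 overlaps the convergent gene SETD6, whose own sense counts fell by 0.69 on the log2 scale (edgeR, adjusted p = 0.00061), while CNOT1 itself rose. Opposite-strand counts of CNOT11, CNOT7 and DCP2 had log2 fold changes of 0.65, -0.47 and -0.45 and did not pass (edgeR, adjusted p = 0.0999, 0.139 and 0.0963). Without DMSO replicate 1 or dTAGV1 replicate 2, CNOT11 passed (0.91 and 0.86), and without DMSO replicate 2 DCP2 did (-0.58).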

How the data were processed

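Counts of reads per gene, deposited by the authors as whole numbers, were used as they stand. FastQC, fastp, STAR, HTSeq and DESeq2 and the build GRCh38 are named in the submitters' processing notes, without version or order. The tables have the layout of STAR's per-gene output. The annotation release and any removal of PCR copies are not given in the sources used here. Counts on the gene's strand were used. The 4 totals of reads given to no gene, 56.7% to 62.8% of each library, were left out.

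Groups follow the treatment named in the sample titles. Genes were tested with edgeR 4.0.16 in R 4.3.3 (filterByExpr, TMM scaling, robust quasi-likelihood F test, Benjamini-Hochberg adjustment over all tested genes, threshold 0.05). CPM are counts per 1000000 after TMM scaling. The standard error is the absolute log2 fold change divided by the square root of F. Paralogue ratios were log2 of counts plus 0.5, compared by 2-sided exact permutation tests in scipy 1.17.1 and adjusted over 5 pairs. Coordinates and transcript ends are from GENCODE 29.

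Counts for every library were to be printed for called members with a log2 change of 1 or more, for paralogue pairs and for the extremes of each role, and from other lists the 2 largest rises and 2 largest falls were named. Other genes whose counts are printed were chosen after their values were seen. The members and lists were chosen with earlier results of these data known. A listed gene is not reported here and was left out of the list counts.

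Replicate pairs within a group differed by more than sampling noise (chi-square over degrees of freedom 1.82 to 5.09). Alternatives were RLE and library-size scaling, DESeq2 1.42.0, limma-voom (limma 3.58.1), no filter, a mean of at least 50 counts, counts irrespective of strand, non-robust dispersions, a replicate block and leaving out each library.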

Additional observations from a re-analysis of the deposited data

Results flagged for a closer look

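Of 78 sets of 4 libraries examined (34 members and 5 paralogue ratios in each group), 5 held a library set apart from the other 3 by Dixon's criterion at the 95% level. Chance gives about 1 in 20. CNOT8 was at 23.2 CPM in DMSO replicate 3, against 33.5 to 35.5 in the other DMSO libraries. UPF3A was at 56.4 CPM in DMSO replicate 2, against 61.6 to 62.6. DCP1A was at 103 CPM in dTAGV1 replicate 4, against 96.1 to 97.2. The log2 ratio of CNOT8 to CNOT7 was -2.18 in dTAGV1 replicate 1, against -1.79 to -1.72. That of DCP1B to DCP1A was -6.99 in dTAGV1 replicate 2, against -4.50 to -4.00, where DCP1B had 2 counts. Without these libraries the log2 fold changes of CNOT8, UPF3A and DCP1A were 0.71, 0.28 and 0.46, each still called by edgeR, and the log2 ratio differences were 1.19 for CNOT8 over CNOT7 and 0.911 for DCP1B over DCP1A.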

How the results depend on the processing

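Over 17 alternatives, members called numbered 12 to 14 higher and 6 to 8 lower, and all genes called 5402 to 8073. The number of genes tested varied too. Where a mean of at least 50 counts was required, 20 of 28 members and 5402 of 8547 genes were called. With no low-count filter the calls were 20 of 34 members and 8073 of 29925 genes. Of the 21 called members, 16 kept their call and direction in every alternative in which they were tested. The others were CNOT6, CNOT7, CNOT11, LSM1 and SMG8, and none of the 21 changed sign. Members that lost most reads when strand was ignored were LSM1, PAN2, CNOT1, SMG6 and UPF3A. They were left with 5.27%, 17.4%, 20.8%, 57.7% and 84.5% as many as on the sense strand. Scaling by library size shifted all genes by a median of -0.0747 and moved the members' median log2 fold change to 0.0651. Members not called changed sign in 14 values: UPF1 under RLE scaling (-0.00263), library-size scaling (-0.068), DESeq2 (-0.00696), no filter (-0.0163) and counts irrespective of strand (-0.0225), and PATL1 under library-size scaling (-0.0405). With each library left out in turn UPF1 ran from -0.0642 to 0.04997, PATL1 from -0.0153 to 0.0572, PARN from -0.105 to 0.0275 and SMG1 from -3.94e-05 to 0.16. No direction is given for these 4 genes. Calls of the genes in the lists of other decay-pathway genes were not examined under the alternatives.

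With each library left out, opposite-strand calls among members numbered 1 to 2 in all, 0 to 1 higher and 1 to 2 lower. All genes called on that strand numbered 1566 to 1656, against 1610 of 3324 tested with all libraries. The 4 paralogue ratios that passed kept their direction. They ran from 0.92 to 1.06 (CNOT6L over CNOT6), 0.923 to 1.19 (CNOT8 over CNOT7), -2.8 to -2.56 (LSM14B over LSM14A) and -0.91 to -0.701 (UPF3B over UPF3A), and DCP1B over DCP1A from -0.0875 to 0.911. With 3 libraries against 4 the exact permutation test cannot go below 0.0571, so none could pass. The same holds for a replicate block, where sign-flipping 4 pairs allows no p under 0.125 and the differences stayed at 1.01, 1.08, -2.71 and -0.831. Deviations from the group means were correlated between libraries of equal replicate number at 0.131, -0.0176, 0.0232 and 0.034 (replicates 1 to 4). The highest correlations of the same DMSO libraries with another number were 0.0192, 0.0769, 0.0112 and 0.0433. Replicates 1 and 3 thus exceeded these, and replicates 2 and 4 did not. Whether equal numbers mark a pair was not tested further. In edgeR the replicate block called 13 members higher and 8 lower, of 32 tested, and 7434 of all 12618 genes tested.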
